A study of Mus musculus with 39 samples.

Results

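The genes described here are 7 that end the response of a photoreceptor to light: the arrestins Sag and Arr3, the opsin kinase Grk1, the 3 parts of the RGS9 complex (Rgs9, Gnb5 and its anchor Rgs9bp), and Pdc, which encodes phosducin. They were taken as all probe sets that the array annotation pairs with 1 of these symbols and no other, which gave 12 probe sets for 7 of the 18193 genes measured. For a gene with several probe sets, the brightest on average over the 39 arrays stands for it. The cells were photoreceptors sorted by flow cytometry for GFP, a fluorescent protein whose transgene is driven by the promoter of Nrl, the rod transcription factor, and their amplified RNA was hybridised to Affymetrix mouse expression arrays. The wt-Gfp mice (wt below) carry the transgene alone, and in the Nrl-ko-Gfp mice (ko below), from a cross of that line with the Nrl knockout, the sorted cells take an S-cone form in place of rods, so cells of all groups carry the transgene. The 5 ages were E16, before birth, the postnatal ages P2, P6 and P10 (numbers are days), and 4 weeks, with 4 arrays for each genotype and age but 3 for ko at E16, which makes 20 wt and 19 ko arrays. The labels do not say whether arrays came from separate animals or how many retinas were pooled, so the p-values measure the spread between arrays.

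A photoreceptor responds to light when its opsin activates transducin, which turns on a phosphodiesterase and closes cation channels. Recovery needs several steps: GRK1 phosphorylates the active opsin in mouse rods and cones, arrestin then caps it, and the RGS9 complex speeds the hydrolysis of GTP on transducin. Phosducin binds the beta-gamma part of transducin. Rods use the arrestin encoded by Sag, while mouse cones contain that protein as well as cone arrestin, encoded by Arr3.

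In the RefSeq annotation of build GRCm38.p6, Sag lies at chr1:87798143-87845158, Arr3 at chrX:100605480-100618493, Pdc at chr1:150319417-150333906 and Grk1 at chr8:13405081-13421951. Rgs9 lies at chr11:109225348-109298181, Gnb5 at chr9:75306288-75345923 and Rgs9bp at chr7:35578993-35585582. The 250 bases before the transcript start used in the RefSeq promoter table are shown for the arrestins and phosducin, since Sag and Pdc were lower in ko at P2 and Arr3 was higher in ko later. Capitals mark matches, on either strand, to TAATCC or TAAGCC, cores bound by the homeodomain factors Crx and Otx2, and to TGCTGA, part of the element bound by Maf factors, Nrl among them. The Sag window is chr1:87803430-87803679 on the plus strand, that of Arr3 is chrX:100605247-100605496 on the plus strand, and that of Pdc is chr1:150319167-150319416 on the plus strand. The start used lies inside the annotated gene span for Sag, whose whole window is within the gene, and for Arr3, whose window crosses the gene's first base; for Pdc it is the gene's first base.
Sag: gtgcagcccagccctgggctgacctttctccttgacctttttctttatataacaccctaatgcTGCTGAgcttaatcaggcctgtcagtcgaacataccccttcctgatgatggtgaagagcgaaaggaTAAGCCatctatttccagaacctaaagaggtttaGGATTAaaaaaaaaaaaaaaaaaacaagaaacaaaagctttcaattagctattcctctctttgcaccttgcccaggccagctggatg
Arr3: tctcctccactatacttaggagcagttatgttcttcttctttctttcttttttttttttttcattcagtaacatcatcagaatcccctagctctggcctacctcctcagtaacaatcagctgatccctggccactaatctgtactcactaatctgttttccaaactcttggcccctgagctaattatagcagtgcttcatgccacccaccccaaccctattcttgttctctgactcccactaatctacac
Pdc: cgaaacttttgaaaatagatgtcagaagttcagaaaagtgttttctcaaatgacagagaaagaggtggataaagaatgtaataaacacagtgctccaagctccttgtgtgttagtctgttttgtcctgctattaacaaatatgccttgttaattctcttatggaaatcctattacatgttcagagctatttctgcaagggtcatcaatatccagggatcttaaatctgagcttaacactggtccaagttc
Sag held all 3 motifs: TGCTGA at 187 to 182 bases before the start used, TAAGCC at 121 to 116, and TAATCC on the other strand at 87 to 82, written there as GGATTA. Arr3, Pdc and Grk1 held none of the 3 in this window. Of the other members with an entry, Rgs9 held TGCTGA on the other strand at 147 to 142 bases and Gnb5 held TAATCC on the other strand in the last 6 bases. Over 32851 mouse promoters of the same length, 6.25% held TAATCC, 8.2% TAAGCC and 16.1% TGCTGA, and 2.32% held TGCTGA with at least one of the other 2. The motifs do not overlap one another, and a match is a description of letters, not of binding.

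Array values are log2 signals as deposited, so a difference of 1 is a 2-fold change. Differences were tested with limma over all 18193 genes, with p-values adjusted by the Benjamini-Hochberg method over all genes within each comparison, and a difference was called at an adjusted p under 0.05. Array means lay between 6.94 and 7.01. In 5 arrays the SD over all probe sets was 1.34 to 1.41, against 1.45 to 1.80 in the others: ko E16 replicate 3, ko P2 replicate 4, ko P6 replicate 4 and wt P10 replicates 1 and 2. Nrl, the deleted gene, was lower in ko by 3.77 to 6.09 log2 units at the 5 stages, but read 9.05 in ko 4 weeks replicate 2 against 5.60 to 5.77 in the other 3 arrays of that group, and that array also had the highest mean of the markers of dividing cells there, 10.48. These 6 arrays stand apart, and values without them are given beside the results they bear on. All 5 photoreceptor markers checked had a present call, and their group means were 10.61 to 12.22. At E16 their mean was 10.61 in ko and 10.985 in wt, with array means of 10.29 to 10.82 and 10.82 to 11.25. Of the 5, 1 was called as lower in ko at E16, 1 as higher and 1 as lower at P10, and 1 as higher at 4 weeks. Markers of amacrine, horizontal and ganglion cells differed between the genotypes: the mean of the 14 genes was 8.70 in wt and 7.44 in ko at E16, with array means of 8.65 to 8.80 and 7.26 to 7.68, and 8.05 against 7.10 at P2, with 7.24 to 8.40 and 7.04 to 7.18. The wt mean was also above the ko mean at P6 (8.003 and 6.94), P10 (7.85 and 6.99) and 4 weeks (7.60 and 7.30). At 4 weeks the array means overlapped, at 7.01 to 8.36 in wt and 6.61 to 8.52 in ko, and 0 of the 14 were called. Of these 14, 12 had a present call in any column. The mean of 7 markers of dividing cells was 10.34 in wt and 9.83 in ko at E16, 9.81 and 9.30 at P2, and 8.66 and 7.66 at P6. The mean of 5 pigment epithelium markers, of which 3 had a present call, was higher in ko at P6, with array means of 7.196 to 7.403 against 6.556 to 7.014 in wt, and at P10, with 7.143 to 7.349 against 6.567 to 7.038, and Tyrp1 and Dct were called at P6 and Dct at P10. The mean of 5 leukocyte markers, of which 2 had a present call, was 6.76 in ko and 6.32 in wt at E16 and 6.88 and 6.65 at P10, and Cd53 was called as higher in ko at both. Cd53 was the only 1 of the 5 called there, and their median difference was 0.29 at E16 and -0.012 at P10. The part of these markers in the differences below was not tested. In sorted bulk RNA, fewer cells of a type and less RNA per cell cannot be told apart.

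Sag, the rod arrestin (probe set 1419025_at), rose steeply in both genotypes and was lower in ko early on. It was lower in ko at P2 by 2.43 ± 0.45 log2 units (SE, n = 4 and 4), at least 5.39-fold, and from P6 on the groups overlapped. "At least" marks a fold whose dimmer group has an absent call in the authors' deposited detection table, so that its level is only a bound. Of the 7 genes, 2 were called at P2, Sag and Pdc, where 0.346% of all genes were called. In wt at P2 the 4 arrays read 11.79, 9.997, 10.96 and 9.38. In ko they read 8.77, 8.34, 7.96 and 7.33. All 4 ko arrays lay below all 4 wt arrays, and the adjusted p was 0.005001. Without the 6 arrays the difference was -2.17 (adjusted p = 0.008341). With only the 8 arrays of this stage in the fit the same difference had an adjusted p of 0.1526.

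At E16, Sag read 7.54, 7.48, 7.79 and 9.46 in wt and 7.37, 6.82 and 5.94 in ko. The groups did not overlap, but both had an absent call and the difference of -1.36 ± 0.48 was not called (adjusted p = 0.1719), nor was that of -0.98 without the 6 arrays (adjusted p = 0.3721). By limma 0 of the 7 genes were called at E16, where 1.13% of all genes were called and 8.39% did not overlap. At an unadjusted p under 0.05, for which no share of all genes is given here, Sag alone passed. At P6 the wt arrays read 11.33, 11.35, 12.58 and 11.10 and the ko arrays 11.28, 10.81, 11.02 and 9.44, the last of these being one of the low-spread arrays. The groups overlapped and the difference of -0.95 ± 0.45 was not called (adjusted p = 0.4148), nor was that of -0.55 without the 6 arrays (adjusted p = 0.6065).

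By P10 the genotypes overlapped for Sag: 12.67, 12.67, 13.37 and 12.35 in wt against 12.50, 12.85, 12.35 and 12.77 in ko. At 4 weeks wt read 13.29, 13.35, 13.37 and 13.53 and ko 13.31, 12.78, 13.35 and 13.15. The arrays overlapped at both stages, with differences of -0.15 ± 0.45 (adjusted p = 0.9132) and -0.24 ± 0.45 (adjusted p = 0.9999). They were -0.25 and -0.12 without the 6 arrays.

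For Sag, the called step in wt was E16 to P2, a rise of 2.46 ± 0.45 (at least 5.52-fold, adjusted p = 0.001407), in an interval where 3.97% of all genes were called. In ko the called steps were P2 to P6, 2.54 ± 0.45 (at least 5.80-fold, adjusted p = 0.001599), and P6 to P10, 1.98 ± 0.45 (3.94-fold, adjusted p = 0.01838). The second of these kept its call in 5 of 8 fits that left out 1 array each, and reached an adjusted p of 0.06172 without ko P10 replicate 4. Both steps kept their calls without the 6 arrays, at 2.68 (adjusted p = 0.0007609) and 1.58 (adjusted p = 0.0306). The change of the genotype difference was -1.07 ± 0.66 from E16 to P2 (adjusted p = 0.976) and 1.48 ± 0.63 from P2 to P6 (adjusted p of 1), so the steps of the genotypes were not shown to differ. Over the whole course from E16 to 4 weeks, Sag rose at least 39.9-fold in wt and at least 87.0-fold in ko. Whether the genotype difference itself changed with stage was tested by an F test over the 5 stages, which did not call Sag (adjusted p = 0.1279). Ordered by level, the group means ran from ko E16 (6.71), wt E16 (8.07), ko P2 (8.10), wt P2 (10.53), ko P6 (10.64), wt P6 (11.59), ko P10 (12.62), wt P10 (12.77) and ko 4 weeks (13.15) to wt 4 weeks (13.39), and 2 of the 9 neighbouring pairs had arrays that did not overlap, the genotypes at E16 and at P2.

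**Figure D1:**
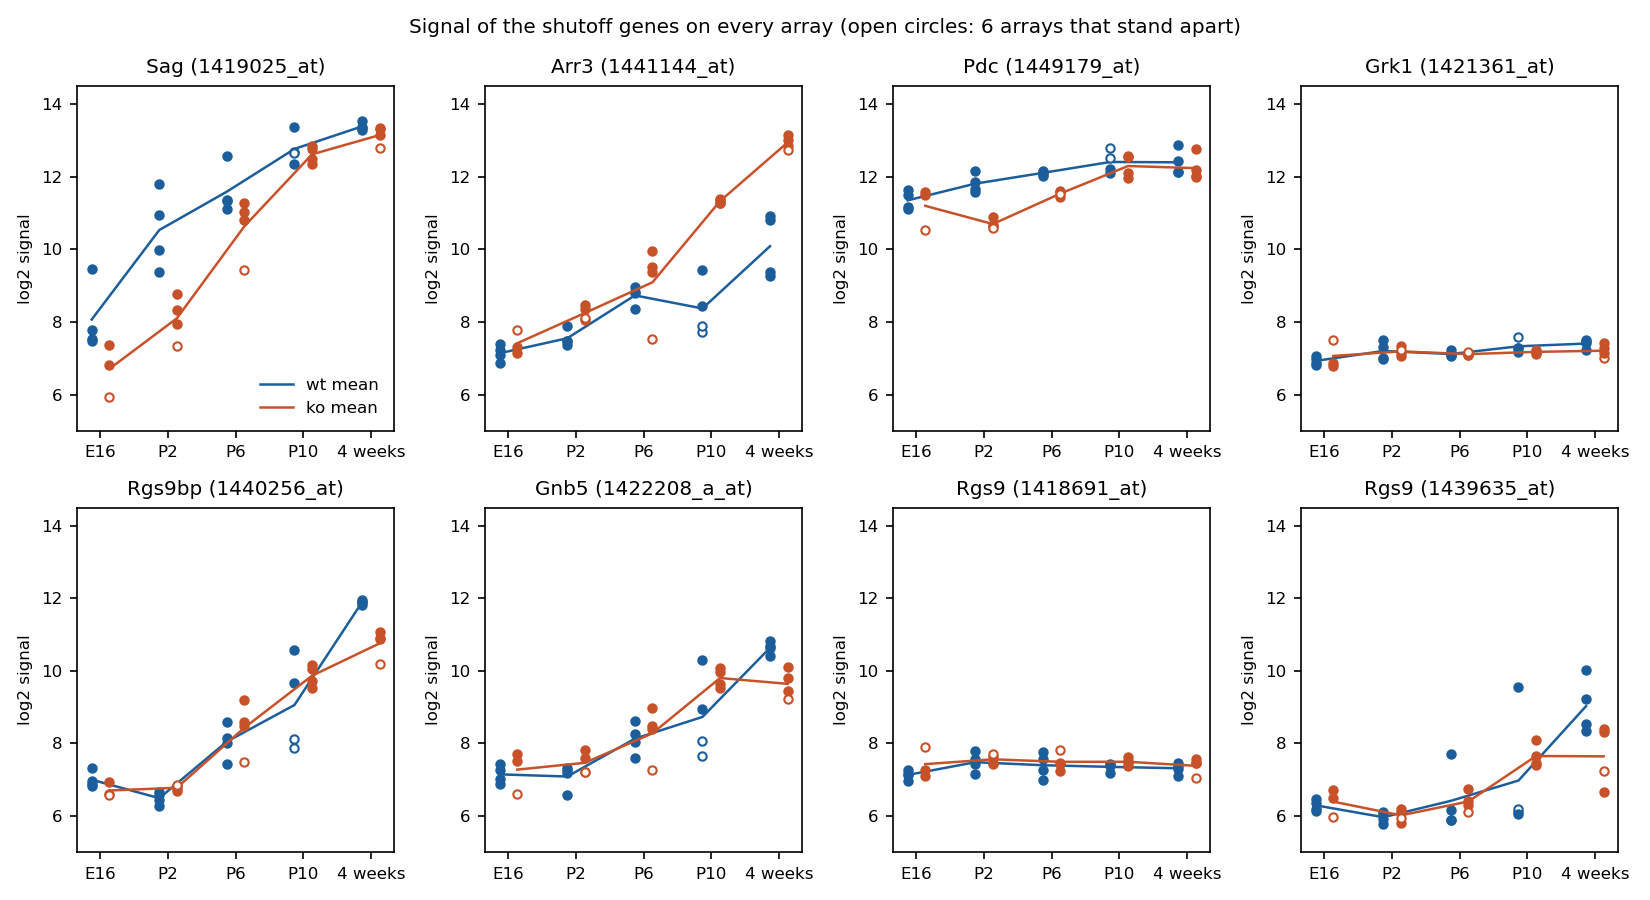
Log2 signal (vertical axis) of the 7 genes, with a further probe set of Rgs9, on every array by stage (horizontal axis) in wt (blue) and ko (orange). Lines join group means and open circles are the 6 arrays that stand apart. Sag in ko lay below wt at P2 and overlapped it from P6 on, Arr3 in ko climbed to 12.94 at 4 weeks against 10.09 in wt, and the main probe sets of Grk1 and Rgs9 stayed near 7.

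Arr3, the cone arrestin, was higher in ko at the later stages. Its signal, from probe set 1441144_at, was 2.96 ± 0.37 log2 units higher in ko at P10 (7.77-fold, adjusted p = 2.295e-06) and 2.86 ± 0.37 higher at 4 weeks (7.24-fold, adjusted p = 1.261e-06), with n = 4 in each group. It was the only 1 of the 7 genes called at either stage, where 2.81% and 4.73% of all genes were called. At P10 it was also the only one of the 7 whose arrays did not overlap, beside 7.45% of all genes. At P10 the ko arrays read 11.27, 11.37, 11.29 and 11.39. The wt arrays read 7.73, 7.88, 9.44 and 8.45, the first 2 being low-spread arrays. At 4 weeks ko read 12.84, 12.75, 13.16 and 13.02 and wt 10.92, 9.26, 9.37 and 10.80. No wt array reached any ko array at either stage, and the wt arrays spread more widely (SD 0.77 and 0.89) than the ko arrays (SD 0.06 and 0.18). Leaving out the 6 arrays gave differences of 2.39 (adjusted p = 1.867e-05) and 2.92 (adjusted p = 2.949e-08).

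Before P10 the genotypes were closer for Arr3. In wt it read 6.86, 7.08, 7.23 and 7.39 at E16 and 7.37, 7.47, 7.89 and 7.48 at P2. In ko it read 7.14, 7.32 and 7.78 at E16 and 8.35, 8.06, 8.47 and 8.10 at P2. On this probe set both groups had absent calls at these 2 stages, while 1425232_x_at had a present call in ko at P2; the arrays overlapped at E16 and not at P2, where the difference of 0.70 ± 0.37 was not called (adjusted p = 0.9997). Arr3, Sag, Pdc and Rgs9bp were the 4 genes of the 7 whose arrays did not overlap at P2, a state that 5.63% of all genes shared. At P6 wt read 8.96, 8.82, 8.80 and 8.35 and ko 9.38, 9.52, 9.96 and 7.52, the last a low-spread array, and the difference of 0.36 ± 0.37 was not called (adjusted p = 0.8469). It was 0.89 without the 6 arrays and was not called (adjusted p = 0.09128).

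Arr3 rose in ko by 2.24 ± 0.37 from P6 to P10 (4.71-fold, adjusted p = 0.0006542) and by 1.61 ± 0.37 from P10 to 4 weeks (3.06-fold, adjusted p = 0.01883), where 1.04% of all genes were called and Arr3 alone of the 7. Both kept their calls without the 6 arrays, at 1.71 (adjusted p = 0.0006952) and 1.68 (adjusted p = 0.0005763). With all arrays, the rise from P10 to 4 weeks kept its call in 3 of 8 fits that left out 1 array each, and reached an adjusted p of 0.08184 without ko 4 weeks replicate 3. In wt it rose by 1.71 ± 0.37 from P10 to 4 weeks (3.28-fold, adjusted p = 0.003267), which fell to 1.15 without the 6 arrays (adjusted p = 0.05664). The whole rise was at least 7.72-fold in wt and at least 46.2-fold in ko. Arr3 was the only one of the 7 for which the F test called a change of the genotype difference over the stages (adjusted p = 0.000268), where 3.14% of all genes were called. Between neighbouring stages its difference grew by 2.60 ± 0.53 from P6 to P10 (adjusted p = 0.03143, with 0.121% of genes called), and by 1.502 without the 6 arrays (adjusted p = 0.09259). Leaving out 1 array at a time, that growth kept its call in 7 of 16 fits, with an adjusted p of 0.0876 without wt P10 replicate 2. The lowest group means were wt E16 (7.14), ko E16 (7.41), wt P2 (7.55) and ko P2 (8.25), followed by wt P10 (8.37), wt P6 (8.73) and ko P6 (9.09). The highest were wt 4 weeks (10.09), ko P10 (11.33) and ko 4 weeks (12.94). The neighbours whose arrays did not overlap were wt P2 and ko P2, wt 4 weeks and ko P10, and ko P10 and ko 4 weeks.

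The other probe sets of Arr3 gave larger differences at 4 weeks. In a fit over all 34945 probe sets with 1 gene, 1425232_x_at was 22.1-fold higher in ko (4.46 ± 0.32, adjusted p = 6.346e-12) and 1450329_a_at 16.8-fold higher (4.07 ± 0.31, adjusted p = 2.411e-11), at a stage where 4.40% of probe sets were called. The arrays of 1425232_x_at read 12.78, 11.93, 12.56 and 12.84 in ko and 9.53, 6.94, 7.22 and 8.55 in wt. The same 2 wt arrays, replicates 1 and 4, were the brighter ones for all 3 probe sets. At P10 the probe sets stood at least 7.65-fold and at least 6.07-fold higher in ko, where 2.13% of probe sets were called. All 3 probe sets were higher in ko at both stages.

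**Figure D2:**
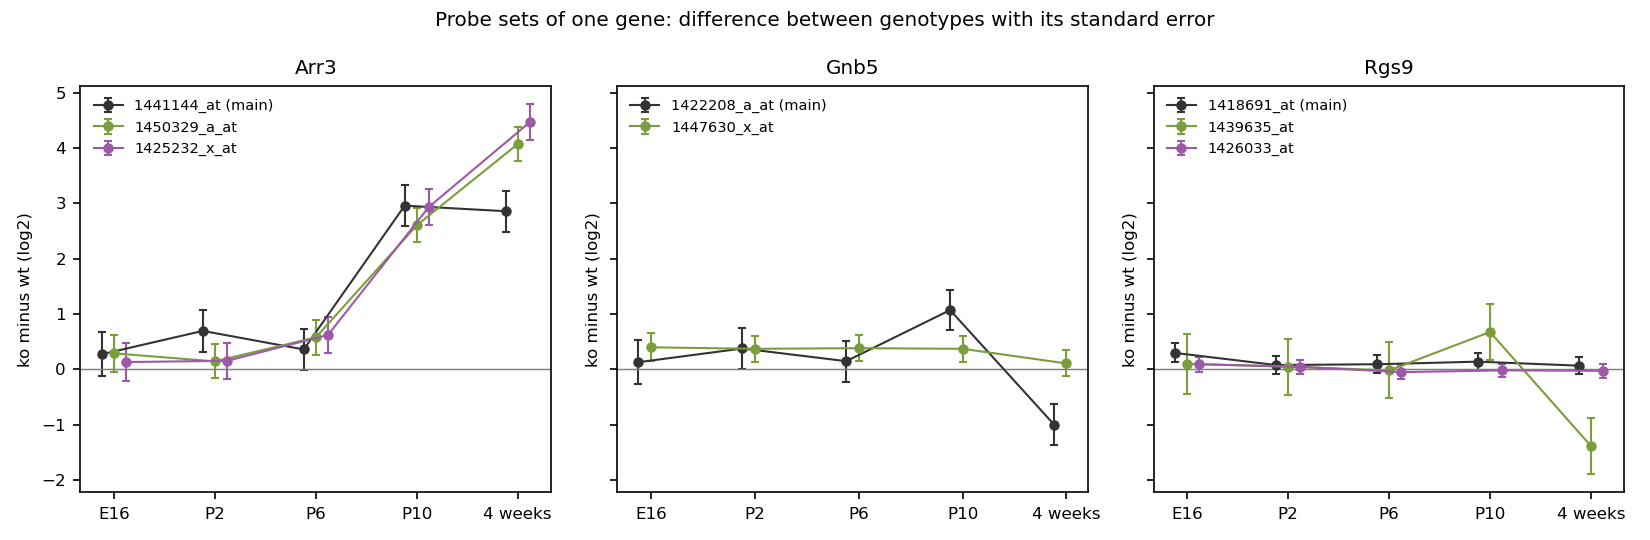
Difference ko minus wt in log2 units (vertical axis) with its standard error, by stage (horizontal axis), for each probe set of Arr3, Gnb5 and Rgs9. For 1441144_at, 1450329_a_at and 1425232_x_at of Arr3 the differences were 2.96, 2.60 and 2.93 at P10 and 2.86, 4.07 and 4.46 at 4 weeks, while 1439635_at of Rgs9 fell to -1.38 at 4 weeks where the other 2 stayed near 0.

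Phosducin, the partner of the transducin beta-gamma subunits, gave a bright signal at every stage (probe set 1449179_at). At P2, Pdc was lower in ko by 1.11 ± 0.20 (2.16-fold, adjusted p = 0.004858, n = 4 and 4). The wt arrays read 12.15, 11.66, 11.58 and 11.85 and the ko arrays 10.89, 10.67, 10.64 and 10.59, with a gap between the groups. With the 6 arrays left out the difference was -1.08 (adjusted p = 0.001608). At E16 the groups overlapped, with 11.12, 11.63, 11.16 and 11.49 in wt and 11.49, 11.57 and 10.54 in ko, the last a low-spread array.

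At P6 Pdc read 12.03, 12.14, 12.09 and 12.17 in wt and 11.43, 11.58, 11.60 and 11.54 in ko. The groups did not overlap, as for 8.15% of all genes, but the difference of -0.57 ± 0.20 was not called (adjusted p = 0.1998). By limma 0 of the 7 genes were called at P6, where 1.54% of all genes were. Sag and Pdc passed an unadjusted p under 0.05, for which no share of all genes is given here. From P10 the genotypes overlapped for Pdc, at 12.10 to 12.81 in wt and 11.96 to 12.58 in ko, and at 4 weeks 12.13 to 12.88 and 11.99 to 12.76. Pdc rose in ko from P2 to P6 by 0.84 ± 0.20 (1.79-fold, adjusted p = 0.03963), and with the replicate number as a block, where the numbers pair these samples, the adjusted p was 0.05302. That step kept its call in 1 of 8 fits that left out 1 array each, and its adjusted p was 0.1486 without ko P6 replicate 3. From E16 to 4 weeks it rose 2.07-fold in wt and 2.05-fold in ko. The order of the group means ran from ko P2 (10.70) through ko E16 (11.20), wt E16 (11.35), ko P6 (11.54), wt P2 (11.81), wt P6 (12.11), ko 4 weeks (12.24), ko P10 (12.30) and wt 4 weeks (12.40) to wt P10 (12.41), and every neighbouring pair overlapped.

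**Figure D3:**
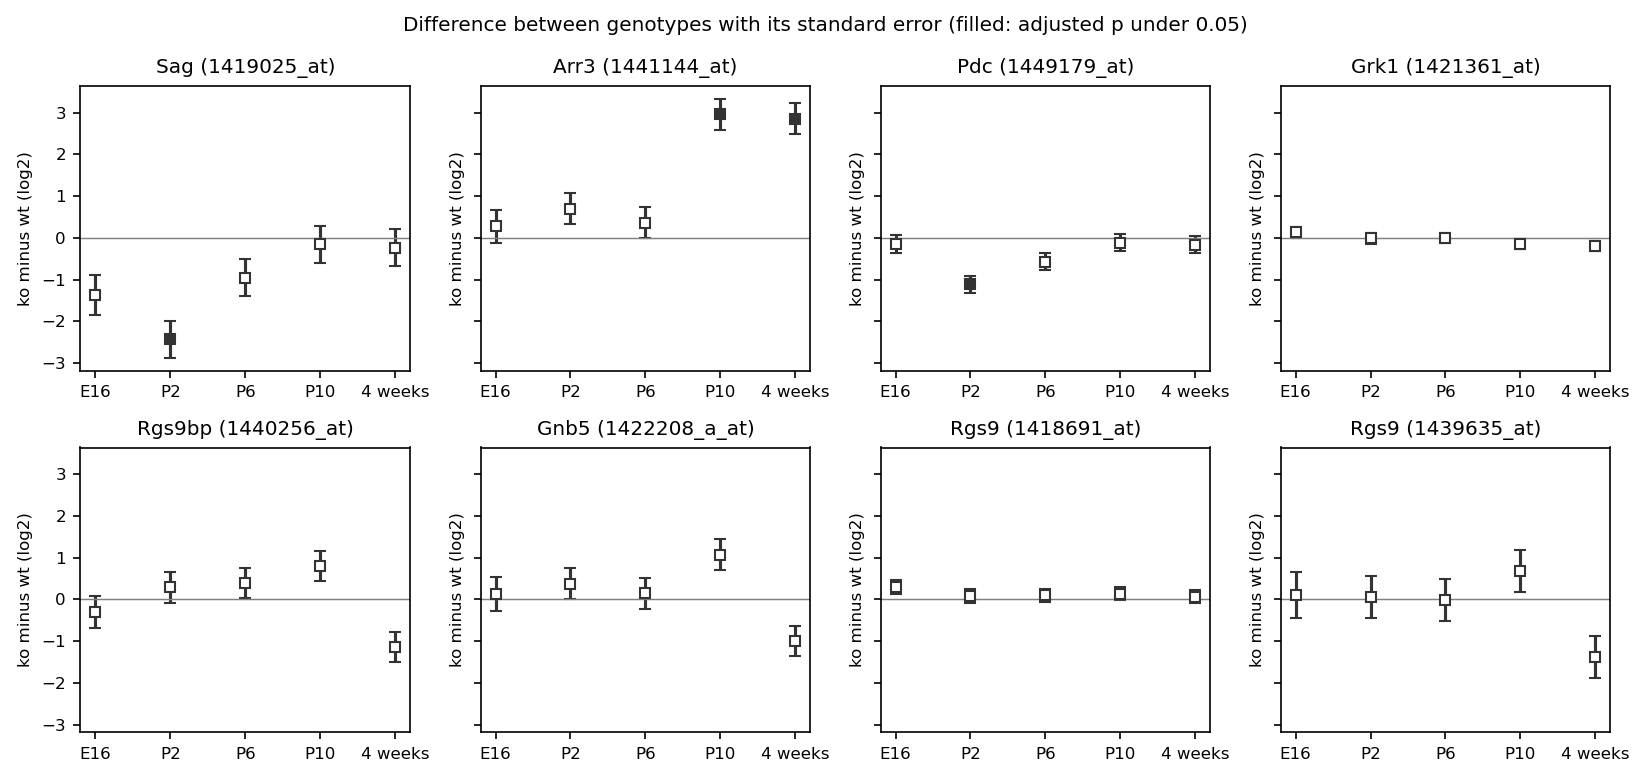
Difference ko minus wt in log2 units (vertical axis) with its standard error at each stage (horizontal axis) for the 7 genes and a further probe set of Rgs9, where filled squares were called. Sag and Pdc were called as lower at P2 (-2.43 and -1.11), and Arr3 as higher at P10 and 4 weeks (2.96 and 2.86).

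The parts of the RGS9 complex other than Rgs9 itself rose after P2 in both genotypes, though in ko Gnb5 rose no further after P10 (means 9.80 and 9.64). Rgs9bp (probe set 1440256_at), which holds the complex at the membrane, rose by 2.83 ± 0.36 in wt from P10 to 4 weeks (7.12-fold, adjusted p = 1.667e-06), and by 1.77 without the 6 arrays (adjusted p = 2.452e-05). Gnb5 (probe set 1422208_a_at), the G protein beta subunit that stabilises RGS9, rose by 1.91 ± 0.37 in the same interval (3.75-fold, adjusted p = 0.0008932), and by 1.02 without the 6 arrays (adjusted p = 0.05208). With Arr3 they were the 3 of the 7 called in that interval, where 5.34% of all genes were. With only the 8 arrays of these 2 groups in the fit none of the 3 was called (adjusted p = 0.09614, 0.1972 and 0.2496 for Rgs9bp, Gnb5 and Arr3). From P6 to P10 in wt, Rgs9bp rose 2.01-fold and Gnb5 1.52-fold, and neither was called. Without the 6 arrays, in a limma fit over all probe sets, these rises were 4.20-fold (adjusted p = 7.174e-06) and 2.79-fold (adjusted p = 0.005042). They were then larger than the rises of 3.41-fold and 2.03-fold from P10 to 4 weeks. In that fit wt P10 had 2 arrays, replicates 3 and 4, and replicate 3 was the higher for both genes. The interval of the larger wt rise thus depended on the 6 arrays.

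Before birth and at P2, Rgs9bp had absent calls in both genotypes, with readings of 6.29 to 7.32 in wt and 6.57 to 6.94 in ko. At P6 it read 8.01, 8.15, 8.60 and 7.44 in wt and 9.21, 8.47, 8.59 and 7.48 in ko. In ko it rose by 1.66 ± 0.36 from P2 to P6 (at least 3.15-fold, adjusted p = 0.01779) and by 1.43 ± 0.36 from P6 to P10 (2.69-fold, adjusted p = 0.0374). Both kept their calls without the 6 arrays, at 2.004 (adjusted p = 2.221e-06) and 1.11 (adjusted p = 0.002124). The rises over all arrays kept their calls in 3 and in 1 of 8 fits that left out 1 array each, with adjusted p of 0.1394 without ko P6 replicate 1 and 0.1268 without ko P10 replicate 2. The rise in wt from P2 to P6, 1.56 ± 0.36, was not called (adjusted p = 0.08039). It was called without the 6 arrays in the limma fit over all probe sets (adjusted p = 3.774e-05). By limma with all arrays 0 of the 7 genes were called in that wt interval, where 0.148% of all genes were. Sag, Arr3, Rgs9bp and Gnb5 passed an unadjusted p under 0.05, for which no share of all genes is given here. For comparison, Sag, Rgs9bp and Pdc were the 3 called in ko from P2 to P6, where 0.660% of genes were called, and Sag, Arr3, Rgs9bp and Gnb5 the 4 called in ko from P6 to P10, where 1.37% were.

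At P10 the wt arrays of Rgs9bp and Gnb5 spread widely, with replicate 3 highest and replicates 1 and 2 lowest. Rgs9bp read 8.13, 7.87, 10.57 and 9.67 in wt, and 9.54, 10.16, 9.72 and 10.05 in ko. Gnb5 read 8.06, 7.64, 10.29 and 8.94 in wt, and 9.52, 10.07, 9.65 and 9.97 in ko. The low wt arrays of both genes, replicates 1 and 2, were the low-spread arrays. The differences of 0.81 ± 0.36 for Rgs9bp (adjusted p = 0.295) and 1.07 ± 0.37 for Gnb5 (adjusted p = 0.1273) were not called, and without the 6 arrays they were -0.26 and 0.19. Leaving out wt P10 replicate 3 alone, the highest array, gave 1.31 for Rgs9bp (adjusted p = 0.008668) and 1.59 for Gnb5 (adjusted p = 0.001686), so no direction for these genes at P10 is stated.

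At 4 weeks the ko arrays of both genes lay below the wt arrays. Rgs9bp read 11.95, 11.82, 11.90 and 11.90 in wt and 10.87, 10.19, 11.07 and 10.91 in ko, a difference of -1.13 ± 0.36 (2.19-fold, adjusted p = 0.07145). Gnb5 read 10.64, 10.42, 10.68 and 10.82 in wt and 9.44, 9.22, 9.82 and 10.10 in ko, a difference of -0.99 ± 0.37 (1.99-fold, adjusted p = 0.1584). Neither was called although no array overlapped, a state shared by 3 of the 7 genes and 10% of all genes. Without the 6 arrays, ko 4 weeks replicate 2 among them, both passed, with -0.94 (adjusted p = 0.004163) and -0.85 (adjusted p = 0.03886). Both also passed with only the 8 arrays of that stage in the fit, at adjusted p = 0.006502 and 0.01735.

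The change of the genotype difference from P10 to 4 weeks was -2.07 ± 0.52 for Gnb5 (adjusted p = 0.04242), kept in 2 of 16 fits that left out 1 array each, and -1.94 ± 0.51 for Rgs9bp (adjusted p = 0.06063), where 0.967% of all genes were called. It was -1.04 for Gnb5 when the 6 arrays were left out, and was not called (adjusted p = 0.2749), and without wt P10 replicate 2 alone the adjusted p was 0.1529. Across the whole course Rgs9bp rose at least 29.6-fold in wt and at least 16.6-fold in ko, and Gnb5 11.2-fold and 5.14-fold. The means of Rgs9bp were lowest in wt P2 (6.49), ko E16 (6.71), ko P2 (6.78) and wt E16 (7.003), then wt P6 (8.05), ko P6 (8.44), wt P10 (9.06) and ko P10 (9.87), and highest in ko 4 weeks (10.76) and wt 4 weeks (11.89); wt E16 and wt P6, ko P10 and ko 4 weeks, and the genotypes at 4 weeks were the neighbours that did not overlap. For Gnb5 the order was wt P2 (7.09), wt E16 (7.15), ko E16 (7.28), ko P2 (7.47), wt P6 (8.13), ko P6 (8.28), wt P10 (8.73), ko 4 weeks (9.64), ko P10 (9.80) and wt 4 weeks (10.64), with a gap only below wt 4 weeks. In ko, Gnb5 rose by 1.52 ± 0.37 from P6 to P10 (2.87-fold, adjusted p = 0.02761), kept in 2 of 8 fits that left out 1 array each and at an adjusted p of 0.09995 without ko P10 replicate 2; without the 6 arrays it was 1.18 (adjusted p = 0.005811). A second probe set of Gnb5, 1447630_x_at, was called absent in 9 of 10 columns and differed by 0.11 ± 0.24 at 4 weeks.

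**Figure D4:**
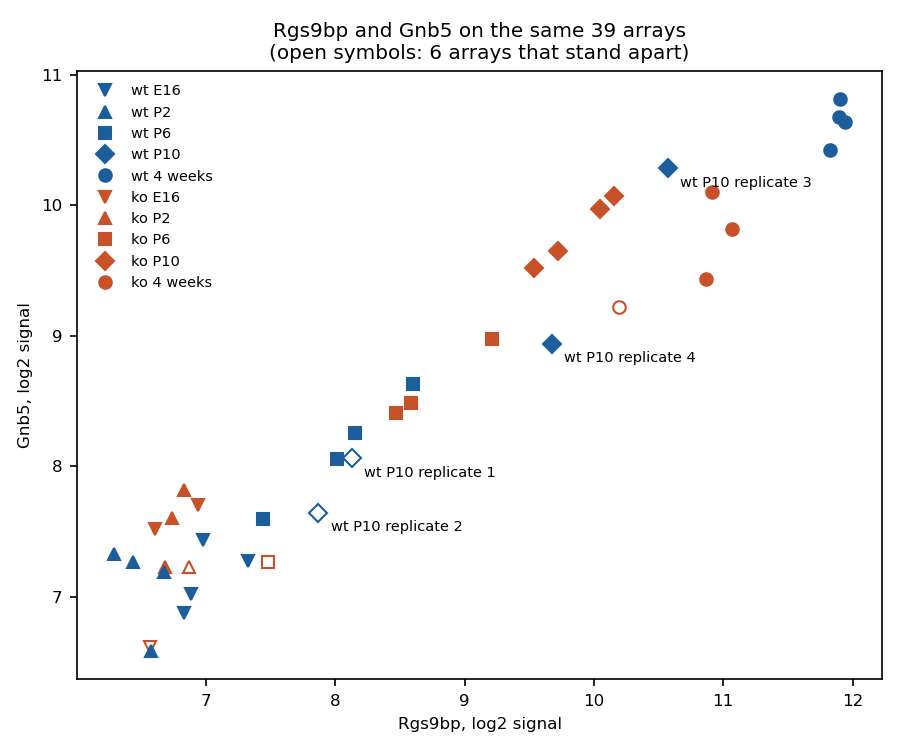
Log2 signal of Gnb5 (vertical axis) against that of Rgs9bp (horizontal axis) on the same 39 arrays, by genotype (colour) and stage (shape), with open symbols for the 6 arrays that stand apart. From P2 on, the 2 genes rose together in wt and, up to P10, in ko. From P10 to 4 weeks in ko the mean of Rgs9bp went from 9.87 to 10.76 and that of Gnb5 from 9.80 to 9.64. The wt P10 replicates 1 and 2 lay with the P6 arrays while replicate 3, at 10.57 and 10.29, lay beside the ko arrays of 4 weeks.

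Rgs9, the GTPase-accelerating protein itself, depended on the probe set. The main probe set, 1418691_at, was called present in every column and barely moved, its group means spanning 0.431 log2 units, and 1426033_at spanned 0.365. At 4 weeks 1418691_at read 7.30, 7.39, 7.47 and 7.10 in wt and 7.58, 7.04, 7.47 and 7.46 in ko. No genotype difference of either was called at any stage. The remaining probe set, 1439635_at, spanned 3.06 and was brightest at 4 weeks in wt, so the probe sets give the gene no single course.

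For 1439635_at every column but the adult one had an absent call. At 4 weeks it read 8.54, 8.34, 9.21 and 10.02 in wt and 6.65, 7.23, 8.39 and 8.31 in ko. At P10 it read 6.10, 6.20, 9.55 and 6.07 in wt and 7.42, 8.08, 7.46 and 7.66 in ko. The wt arrays were low at P10 but for replicate 3, which lay above every ko array. In wt it rose from P10 to 4 weeks by 2.05 ± 0.50 (at least 4.14-fold, adjusted p = 0.01197, where 5.03% of probe sets were called) and over the whole course by 2.73 ± 0.50 (at least 6.64-fold, adjusted p = 0.0001328, where 17.8% of probe sets were called). Without the 6 arrays, which leaves wt P10 replicates 3 and 4, the step from P10 to 4 weeks was 1.22 ± 0.60 and was not called (adjusted p = 0.4672), and the whole course kept its call (adjusted p = 0.0001086). The genotypes overlapped at 4 weeks, and the difference of -1.38 ± 0.50 was not called (adjusted p = 0.1504). The order of its means had 1 gap between neighbours, from ko P10 (7.66) to wt 4 weeks (9.03).

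Grk1, the opsin kinase, gave little signal on its single probe set, 1421361_at. Its group means lay between 6.93 (wt E16) and 7.41 (wt 4 weeks), all neighbours overlapped, and 4 of the 5 ko columns had an absent call. In wt the E16 and P6 columns had an absent call and the P2, P10 and adult columns a present call. At 4 weeks wt read 7.41, 7.23, 7.50 and 7.48 and ko 7.42, 6.996, 7.14 and 7.27, a difference of -0.20 ± 0.12 that was not called (adjusted p = 0.6942). The called change was a rise of 0.48 ± 0.12 in wt from E16 to 4 weeks (at least 1.39-fold, adjusted p = 0.004906). Over that course 6 of the 7 genes were called in wt, where 18.3% of all genes were, and 5 of 7 in ko, where 7.38% were; the main probe set of Rgs9 was called in neither, and Grk1 was not called in ko. With the probe set this near the background of the array, changes of Grk1 other than the called rise may have gone undetected.

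The members were set beside each other by the Pearson correlation of their 10 group means, a description over groups that share arrays and normalization. Gnb5 and Rgs9bp gave 0.985, Sag and Pdc 0.918, and Sag and Arr3 0.72. Among 4647 named genes whose group means span at least 1 log2 unit, the 3 most like Sag were Dnm3 (0.984), Gngt1 (0.976) and Scg2 (0.973). Those most like Arr3 were Tomm20 (0.976), Tef (0.964) and Gzmm (0.956). Rgs9bp was matched best by Serinc4 (0.990), C2cd2l (0.983) and Fam169a (0.981), and Gnb5 by Gas6 (0.981), Serinc4 (0.979) and Fabp4 (0.979). Pdc was matched by Gngt1 (0.951), the rod transducin gamma subunit, with Slc25a5 (0.938) and Dyrk2 (0.935). The probe set 1439635_at of Rgs9 was matched by Rrp1b (0.993), Tigar (0.982) and Tapt1 (0.981). For Grk1 (Irf3, Gria2 and Drd4, 0.932 to 0.954) and the main probe set of Rgs9 (Ccn3, Khdc1b and Mcm6, 0.915 to 0.923), the members themselves span under 0.5 log2 units.

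For the activating arm of the cascade, rod genes were called as lower and cone genes as higher in ko. Of 9 rod activation genes measured, 0, 2, 5, 7 and 7 were lower in ko at E16, P2, P6, P10 and 4 weeks and 0 were higher, with a median difference of -3.37 at 4 weeks against 0.03 over all genes tested. Over all genes, 0.819%, 0.220%, 0.748%, 0.868% and 2.62% were called as lower at these stages. At P2 these were Pde6b, a rod phosphodiesterase subunit (-2.37 ± 0.31), and Gngt1 (-1.42 ± 0.25), alongside Sag and Pdc. At 4 weeks the largest were Gnat1, rod transducin alpha (-5.45 ± 0.30), the exchanger Slc24a1 (-5.28 ± 0.41), Pde6b (-4.51 ± 0.31) and the channel subunit Cnga1 (-4.19 ± 0.30), while Sag differed by -0.24 ± 0.45 there.

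Of 9 cone activation genes measured, 1, 2, 6, 7 and 8 were higher in ko at the 5 stages and 0 were lower, with a median difference of 3.43 at 4 weeks. Over all genes, 0.308%, 0.126%, 0.797%, 1.95% and 2.11% were called as higher. Cone transducin alpha, Gnat2, was called from P2 on (2.08 ± 0.38 there, adjusted p = 0.005001), as was the cone phosphodiesterase Pde6c (2.07 ± 0.42, adjusted p = 0.0139), at a stage where the main probe set of Arr3 had absent calls in both genotypes. At P6, Opn1sw, the S-cone opsin, stood 3.81 ± 0.51 higher in ko and Gnat2 3.36 ± 0.38, against 0.36 ± 0.37 for Arr3. At 4 weeks the largest were Cngb3, a cone channel subunit (4.23 ± 0.33), Gnat2 (3.89 ± 0.38), Opn1sw (3.82 ± 0.51) and the phosphodiesterase subunit Pde6h (3.56 ± 0.37), beside 2.86 ± 0.37 for Arr3. The difference between these genes and Arr3 was not itself tested.

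Of 4 calcium feedback genes measured, Guca1a, a guanylate cyclase activator, was higher in ko at P6 (2.34 ± 0.41) and P10 (5.003 ± 0.41), and Guca1b, another, was lower at 4 weeks (-3.13 ± 0.39); Rcvrn, which encodes the GRK1 inhibitor recoverin, was called at no stage. Relatives outside the visual cascade were also read. Of 6 arrestins and G protein receptor kinases measured, Grk6 was called, lower in ko at P10 by 0.66 ± 0.17 (adjusted p = 0.02712), and the others at no stage. None of 7 RGS relatives and adaptors and none of 3 phosducin-like genes was called between genotypes at any stage, with median differences at 4 weeks of -0.02 and 0.02. Of the 42 genes on these lists 38 were measured by a probe set of 1 gene, and the other 4 are not analysed here.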

How the data were processed

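The authors deposited log2 expression values for 45101 probe sets on 39 arrays; RMA is named in the submitters' processing notes, without version or settings. The authors also deposited present or absent calls (a text value, unit other) for each genotype and stage, with replicates combined; how they were combined is not given in the sources used here. The genotype of a call table was taken from the table's name, and its adult column matched no label and was not assigned to the 4-week arrays.

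Controls (64 probe sets), 932 probe sets with several genes and 9160 unnamed ones were left out. Each of 18193 genes took its probe set of highest mean. limma 3.58.1 in R 4.3.3 (lmFit, eBayes, 10 group means, 29 residual degrees of freedom) gave the tests, which were also tested on simulated data. Named genes were the 7 members, up to 4 called genes a list and stage with the largest difference, the 3 most alike per member, and Nrl. Members and lists were chosen with earlier results of these data known.

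Arrays sharing a replicate number deviated together, every pair above 0.1, in ko from E16 to P2 (0.299 to 0.743) and from P2 to P6 (0.127 to 0.841), judged from the data alone. Alternatives were another probe set, quantile normalization, median centring, a filter on present calls, fits of 2 groups, array weights, a trended prior, the replicate block and leaving out arrays. Array number limits precision.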

Additional observations from a re-analysis of the deposited data

Results flagged for a closer look

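In 4 of 108 groups of 4 arrays tested, 1 array lay far from the other 3, where chance gives about 1 in 20. All 4 readings are from wt arrays. Of them, 3 are from a replicate 3, and the same array, wt P6 replicate 3, gave one for Sag and one for Rgs9. Sag read 9.46 in wt E16 replicate 4 against 7.48 to 7.79 in the others, and 12.58 in wt P6 replicate 3 against 11.10 to 11.35. The Rgs9 probe set 1439635_at read 9.55 in wt P10 replicate 3 against 6.07 to 6.20, and 7.72 in wt P6 replicate 3 against 5.89 to 6.16.

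The genotype difference changed with stage for Arr3 by the F test in limma over the 5 stages (adjusted p = 0.000268), with a step of 2.60 from P6 to P10. For Gnb5 it changed by -2.07 from P10 to 4 weeks. When each array of the 4 groups was left out in turn, the Arr3 step kept its call in 7 of 16 fits (2.07 to 2.95) and the Gnb5 change in 2 of 16 (-2.58 to -1.70).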

How the results depend on the processing

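Of 4 called genotype differences, 71 of 72 alternatives kept direction and call, the exception being Sag at P2 with only the 2 groups (adjusted p = 0.1526); of 23 called steps, 228 of 271 did; of 2 called changes of the genotype difference, 13 of 38 did. The cause of a lost call was not tested. With array weights, whose estimates stopped before converging, the members called between genotypes were 1 at E16, 5 at P10 and 4 at 4 weeks. That fit called 28.6%, 59.8% and 18.6% of all genes at these stages. By the F test it called 6 members, for which no share of all genes is given here. With only the 2 groups in the fit, 1 member was called at P2, 1 at P6 and 3 at 4 weeks. The shares of all genes there were 0.209%, 1.10% and 4.80%. The members called were 2 for wt E16 to P2, where 38.6% of all genes were called. They were 0 for wt P10 to 4 weeks, beside 0.478% of all genes, where fewer arrays estimate the spread. Quantile normalization gave 2 at 4 weeks, beside 6.67% of all genes, and 1 for wt P2 to P6, beside 0.374%. By the F test it gave 3, for which no share is given here. A present call in any column gave 2 at 4 weeks, beside 8.34% of the genes kept. Leaving out the 6 arrays that stand apart was a choice made after seeing the data. The count was then 3 at 4 weeks, beside 7.63% of all genes, and 3 by the F test, with no share given here. For the wt steps in order of stage the counts were 5, 3, 2 and 1, beside 44.2%, 1.63%, 2.14% and 3.17% of all genes. For the ko steps from E16, P2 and P10 they were 3, 5 and 2, beside 37.3%, 3.41% and 3.27%. Leaving out 1 array at a time gave 1 to 3 members at P10. The 3 came without wt P10 replicate 3, where 8.44% of all genes were called. By the F test the count was 1 to 3, with no share given here. For ko E16 to P2 it was 0 to 2, the 2 without ko E16 replicate 3, where 40.7% of all genes were called. For wt P2 to P6 it was 0 to 1, beside 0.066% to 0.154% of all genes over these fits. In ko it was 1 to 4 for P2 to P6 (0.302% to 1.54%) and 1 to 4 for P6 to P10 (0.533% to 2.35%). From P10 to 4 weeks in ko it was 0 to 1 (0.616% to 1.36%). Over all genes the calls at P2 numbered 63, and 187 with quantile normalization, 205 without the 6 arrays, 38 with the 2 groups and 1160 with array weights.
The replicate number as a block ended the calls of Pdc in ko from P2 to P6 (adjusted p = 0.05302), where the numbers pair the samples, and of Rgs9bp in ko from P6 to P10 (adjusted p = 0.05289), where they do not, and of no other member result.
Of 31 differences that were not called, these changed sign. Array weights gave -0.12 for Grk1, 0.19 for Pdc and -0.065 for Rgs9 at E16 and -0.011 for Rgs9 at P6. Quantile normalization gave 0.17 for Pdc at E16 and 0.044 for Grk1 at P6, and median centring 0.043 for Grk1 at P6. Without the 6 arrays the values were -0.089 for Grk1 and 0.18 for Pdc at E16, -0.013 for Rgs9 at P6, and 0.14 for Pdc and -0.26 for Rgs9bp at P10. Of the other probe sets, that of Gnb5 gave 0.11 at 4 weeks, 1426033_at of Rgs9 gave -0.049, -0.018 and -0.025 at P6, P10 and 4 weeks, and 1439635_at, also its probe set of highest variance, -0.018 at P6 and -1.38 at 4 weeks.
Leaving out 1 array at a time, the differences that crossed 0 ran from -0.082 to 0.46 (Gnb5), -0.089 to 0.27 (Grk1) and -0.34 to 0.18 (Pdc) at E16, from -0.086 to 0.093 (Grk1) and -0.033 to 0.18 (Rgs9) at P2, and from -0.082 to 0.49 (Gnb5), -0.026 to 0.029 (Grk1) and -0.039 to 0.21 (Rgs9) at P6. They ran from -0.29 to 0.054 (Sag) and -0.21 to 0.020 (Pdc) at P10, and from -0.33 to 0.0013 (Pdc) and -0.0039 to 0.18 (Rgs9) at 4 weeks. The Sag value of 0.054 came without wt P10 replicate 3. The number of arrays limits what these comparisons can show, and probe sets near background, those of Grk1 among them, limit it further.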

Other observations

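Within wt, the arrays of a group did not carry Sag evenly early in the course, and their order by Sag was their order by Nrl. At E16 Nrl read 9.08, 8.76, 9.80 and 10.61 in replicates 1 to 4, where Sag read 7.54, 7.48, 7.79 and 9.46. At P2 Nrl read 11.56, 10.61, 11.39 and 9.77, and Sag 11.79, 9.997, 10.96 and 9.38. At E16 Sag and Gnb5 followed the order of Nrl, as did 1.85% of genes, and at P2 Sag alone of the 7 did, beside 4.66% of genes. The order was the same at both stages for 1 of the 7 genes, Sag, and for 27 of 18192 genes, Sag among them (0.148%). At P6, P10 and 4 weeks none of the 7 followed the order of Nrl, where 4.49%, 3.12% and 1.25% of genes did. With 4 arrays a group this is a description, and no test was made.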
